A study of Rattus norvegicus with 12 samples.

Results

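The collagen chains of rat bone around dental mini-implants were followed across 4 groups of 3 libraries. They were taken as every gene of the deposited table whose symbol is "Col", a number, "a" and a number, which gave 42 of 33801 genes. Implants made of Zr58Cu25Al14Nb3, here Nb3 alloy, gave the loaded and the non-loaded Nb3 group. Implants made of titanium gave the loaded and the non-loaded cpTi group. WT rats carried the implants where the maxillary first molar stands. Loaded implants received cyclic loading for 2 weeks, non-loaded ones stayed static, and the RNA came from a 4 mm disc of the bone around them. All 12 libraries were therefore from implanted bone, and every group carried an implant. Strain, age and the number of rats are not given in the labels, and nothing there says that the replicates of a group came from separate animals. The p-values below therefore measure the spread between these samples, which may be technical.

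Collagens are triple helices of 3 alpha chains, each kind of chain coded by its own gene. Where a protein joins different kinds of chain, these have to be made together. Fibrillar collagens form the cross-banded fibrils that carry tension, and type I is the main protein of bone matrix, laid down by osteoblasts. Type IV forms the sheet-like network of basement membranes under endothelium and epithelium and around muscle, Schwann cells and fat cells. FACIT chains sit on the surface of fibrils, type VI forms beaded filaments around cells, and transmembrane chains stay anchored in the cell membrane.

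By class, the 42 members were 11 fibrillar chains, 4 chains of type IV, 3 chains of the basement membrane zone (Col15a1, Col18a1 and Col7a1), 3 short-chain network formers (Col8a1, Col8a2 and Col10a1), 9 FACIT chains, 6 beaded filament chains of type VI, 4 transmembrane chains, Col28a1, which is related to type VI, and Col26a1. Testing was limited to genes at 1 FPKM (fragments per kilobase of gene length, scaled by depth) or more in at least 3 libraries, which left 32 chains. The other 10 were Col10a1, Col19a1, Col20a1, Col9a1, Col4a6, Col7a1, Col6a4, Col6a6, Col26a1 and Col23a1. None of the 32 passed through the loaded Nb3 alloy libraries alone.

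RefSeq promoter windows (build GRCr8), running from 250 bases before to 50 bases after the annotated start, were found for 33 of the 42 members. The 3 motifs searched, on both strands, were the CCAAT box (CCAAT), the GC box (GGGCGG) and the TATA box (TATAAA), which do not overlap one another in letters. A CCAAT box stood in 33.3% of the members' windows and in 37.5% of all 33469 windows. A GC box stood in 54.5% of the members' windows and in 33.1% of all, and a TATA box in 12.1% and 14.2%. Col4a1 and Col4a2, the chains of the ubiquitous type IV network, are read away from each other, and their annotated starts lie 77 bases apart. The block shared by their windows is shown because the levels of these chains moved together (below), and the Col1a2 window because type I collagen made up most of the collagen RNA. The block lies at chr16:84885471-84885646 and is printed on the + strand, the strand of Col4a1, and the Col1a2 window lies at chr4:33518307-33518606 on the + strand. Capitals mark motif letters in either direction.
Col4a1 and Col4a2 shared block: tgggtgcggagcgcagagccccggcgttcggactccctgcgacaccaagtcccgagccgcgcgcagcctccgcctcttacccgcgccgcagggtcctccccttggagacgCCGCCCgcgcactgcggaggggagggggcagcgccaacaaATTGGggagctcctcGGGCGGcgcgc
Col1a2: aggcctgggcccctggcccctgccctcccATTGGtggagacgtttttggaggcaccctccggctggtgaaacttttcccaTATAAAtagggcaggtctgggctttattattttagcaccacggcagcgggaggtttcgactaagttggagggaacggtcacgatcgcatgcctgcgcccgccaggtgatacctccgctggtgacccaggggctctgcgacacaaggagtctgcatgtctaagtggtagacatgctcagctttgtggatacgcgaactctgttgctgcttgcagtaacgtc
The shared block holds 2 GC boxes and 1 CCAAT box and no TATA box, while the Col1a2 window holds 1 CCAAT box and 1 TATA box. These matches describe the letters and are not evidence of a bound factor.

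Reads on genes numbered 12.9 to 22.3 M per library. Loaded Nb3 alloy differed from the rest as a group. Its libraries correlated with the other 9 at a Pearson r of 0.731 to 0.866 on log2(FPKM + 1), beside 0.932 to 0.969 among those 9. Mitochondrial genes took 11.97%, 24.3% and 11.3% of their reads, against 4.31% to 6.86% in the other 9. Marrow and blood markers summed to 29.4 to 64.7 FPKM in loaded Nb3 alloy and to 1746 to 3664 FPKM in the other 9. All 10 of those markers fell with loading in Nb3 alloy, where 25.2% of all tested genes fell (limma, adjusted p under 0.05). Osteoblast and osteocyte markers, the check of the labelled tissue, were present in all groups, at 1832 to 9323 FPKM. Loaded Nb3 alloy replicate 2 held the lowest sum, 1832 FPKM, and also the highest sums for skeletal muscle (613 FPKM) and epithelium (83.3 FPKM).

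Collagen chains took 8.50%, 5.08% and 9.95% of the reads in loaded Nb3 alloy, against 4.03%, 1.76% and 1.54% in non-loaded Nb3 alloy. In cpTi they took 5.39%, 6.32% and 5.52% when loaded, against 1.77%, 2.85% and 2.31% when not loaded. Within each material every loaded library lay above every non-loaded one. In bulk tissue, fewer cells of a type and less RNA per cell cannot be told apart, so these shares describe the tissue sampled. Type I alone, Col1a1 and Col1a2 together, made up 65.8% to 91.3% of the summed collagen FPKM in the 12 libraries. The lowest of these shares was that of loaded Nb3 alloy replicate 2, and the other 11 were 80.6% or higher.

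The order of levels was headed by the type I chains everywhere. Mean levels in loaded Nb3 alloy were 7323 ± 2377 FPKM for Col1a1, 4519 ± 1560 FPKM for Col1a2 and 1235 ± 478 FPKM for Col3a1 (SD, n = 3). Col5a2, which joins type I fibrils as a chain of type V, came next at 271 ± 88.6 FPKM, followed by Col6a1 at 217 ± 28.3 FPKM and Col4a1 at 187 ± 131 FPKM. Col5a2, Col6a1 and Col4a1 did not differ beyond their spread. In non-loaded Nb3 alloy Col5a2 (92.1 ± 34.2 FPKM) and Col3a1 (80.6 ± 35.6 FPKM) followed the type I chains and likewise did not differ beyond their spread. In loaded cpTi the same places were taken by Col3a1 (246 ± 148 FPKM) and Col5a2 (232 ± 63.7 FPKM), and in non-loaded cpTi by Col3a1 (180 ± 73.0 FPKM) and Col5a2 (78.4 ± 9.89 FPKM). Chains at the low end included Col10a1, the type X chain of hypertrophic cartilage, at 0 to 0.420 FPKM over the 12 libraries, and Col9a1, which was listed at 0 in all 12. Col2a1, the main chain of cartilage fibrils, reached 0.951 to 6.91 FPKM, and Col17a1, a transmembrane chain of epithelial hemidesmosomes, 0.685 to 1.55 FPKM.

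**Figure D1:**
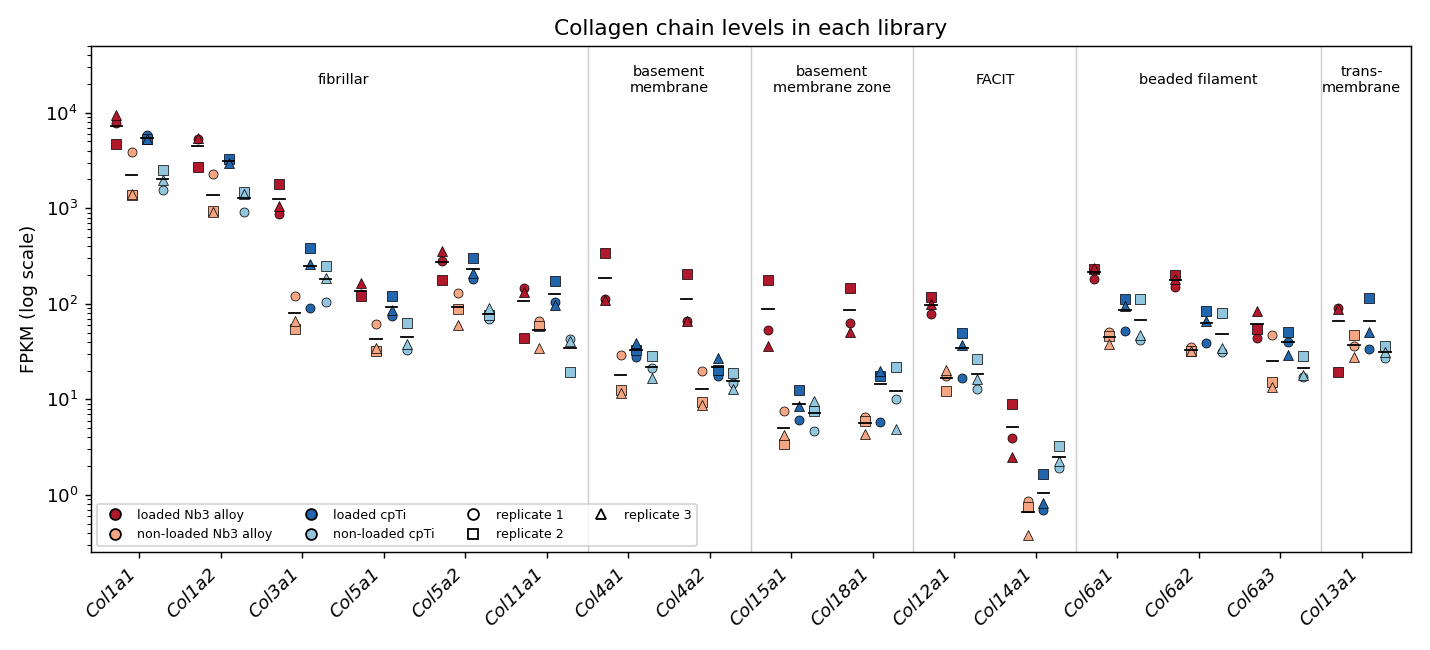
FPKM of 16 collagen chains in each of the 12 libraries, on a log axis, ordered by class. Points are libraries, coloured by group with loaded Nb3 alloy leftmost, symbols give the replicate, and short lines are means of 3. Col3a1, Col4a1, Col4a2, Col15a1, Col18a1, Col12a1, Col6a1 and Col6a2 sit higher in all 3 loaded Nb3 alloy libraries than in any other library, while Col1a1 is high in both loaded groups.

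In Nb3 alloy, 23 of the 32 tested chains rose with loading and none fell. Over all 15268 tested genes, 20.7% rose and 25.2% fell by the same rule (limma, adjusted p under 0.05). Scaling by total reads gave 2266 genes higher and 4670 lower, against 3156 and 3840 with the deposited scaling, and 22 chains higher. The median log2 difference of the 32 chains was 1.73, beside -0.02 for all tested genes. By class, 8 of 11 fibrillar chains rose, as did 2 of 3 tested type IV chains, both tested chains of the basement membrane zone, both tested short-chain formers, 4 of 6 tested FACIT chains, all 4 tested type VI chains and Col28a1. None of the 3 tested transmembrane chains did. For 22 of the 32 tested chains all 3 loaded libraries lay above all 3 non-loaded ones, which was so for 22.9% of all tested genes. They lay below for none of the 32, where 28.0% of all tested genes did so. This comparison moves with the mitochondrial share and the marrow markers given above, and with summed markers of fibroblasts (975 to 1130 FPKM loaded, 153 to 237 FPKM non-loaded), endothelium (179 to 340 FPKM loaded, 56.4 to 92.2 FPKM non-loaded), and smooth muscle and pericytes (647 to 967 FPKM loaded, 101 to 175 FPKM non-loaded). All 3 fibroblast markers, 4 of 5 endothelial markers and 5 of 6 smooth muscle and pericyte markers rose. All 4 Schwann cell markers and all 3 ligament and tendon markers rose as well. So did 2 of 4 tested cartilage markers and 1 of 3 tested skeletal muscle markers. Both tested epithelial markers, Cdh1 and Dsg3, fell. The epithelial markers under the filter, Krt5, Krt6a, Krt15 and Dsp, had higher means when loaded, mostly through replicate 2. Krt5 had 0.168, 51.1 and 0.931 FPKM loaded, against 0, 0 and 0.492 FPKM non-loaded. None of the 9 osteoblast and osteocyte markers was called. Their part in the collagen differences was not tested.

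Among fibrillar chains, Col3a1 rose most. It codes the type III chain of extensible tissues such as vessel wall and periodontal ligament. It had 877, 1778 and 1050 FPKM in loaded Nb3 alloy, against 121, 54.8 and 65.7 FPKM in non-loaded Nb3 alloy. The groups did not overlap, and the log2 difference was 3.94 ± 0.53 (SE, limma adjusted p = 0.000177). Col1a1 had 7887, 4714 and 9367 FPKM in loaded Nb3 alloy, against 3878, 1373 and 1422 FPKM in non-loaded Nb3 alloy. Its groups did not overlap either, but the highest non-loaded library reached near the lowest loaded one. The log2 differences were 1.84 ± 0.42 for Col1a1 and 1.79 ± 0.40 for Col1a2 (adjusted p = 0.00409 and 0.00391, limma), and both calls were lost under quantile normalization.

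Type V chains control the width of type I fibrils, and all 3 rose. Col5a1 had 126, 121 and 166 FPKM in loaded Nb3 alloy, against 60.8, 31.8 and 34.4 FPKM in non-loaded Nb3 alloy, a log2 difference of 1.72. Col5a2 differed by 1.56. Col5a3, the type V chain found in fewer tissues, had 24.0, 65.9 and 21.8 FPKM in loaded Nb3 alloy, against 3.70, 3.67 and 4.69 FPKM in non-loaded Nb3 alloy, and its log2 difference was 2.75. Col27a1, a fibrillar chain best known from developing cartilage, rose by 1.59 on the log2 scale, and Col24a1, a fibrillar chain of bone, by 0.92 (adjusted p = 0.0480, limma). Col24a1 overlapped between groups, at 6.08, 3.23 and 10.3 FPKM loaded and 3.82, 2.73 and 1.75 FPKM non-loaded, and of the 23 calls it was lost under the most alternatives.

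The type XI chains, which form a core of thin fibrils together with type II or type V, did not pass the test. Col11a1 had 145, 43.4 and 133 FPKM in loaded Nb3 alloy, against 65.9, 58.3 and 34.1 FPKM in non-loaded Nb3 alloy, and Col11a2 had 141, 24.3 and 151 FPKM, against 95.9, 72.5 and 44.2 FPKM. In both, replicate 2 was the lowest loaded library and the groups overlapped. The log2 differences were 0.88 (95% interval -0.16 to 1.92) and 0.25 (-1.01 to 1.52). Without loaded Nb3 alloy replicate 2 they were 1.43 and 1.10, and Col11a1, Col11a2, Col13a1 and Col22a1 then passed as well, for 27 chains in all.

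The basement membrane chains Col4a1 and Col4a2 were among those with the largest differences. Col4a1 had 112, 339 and 110 FPKM in loaded Nb3 alloy, against 29.4, 12.5 and 11.6 FPKM in non-loaded Nb3 alloy. Col4a2 had 66.2, 205 and 66.7 FPKM in loaded Nb3 alloy, against 19.9, 9.43 and 8.69 FPKM in non-loaded Nb3 alloy. In both chains the loaded libraries all lay above the non-loaded ones, with replicate 2 the highest and replicate 1 the highest of the non-loaded. The log2 differences were 3.23 ± 0.44 and 2.93 ± 0.42 (SE, adjusted p = 0.000198 and 0.000265, limma), and 2.69 and 2.39 without loaded Nb3 alloy replicate 2. On the deposited coordinates Col4a1 (chromosome 16, 78183533 to 78294412, + strand) and Col4a2 (78047602 to 78183839, - strand) overlap by 307 bases. Whether counting used strand is unknown from the labels, so reads from the overlap may not be assigned to one chain. Col4a3, a chain of kidney and lung basement membranes, stayed at 0.314 to 0.940 FPKM loaded and 0.652 to 1.01 FPKM non-loaded. A pair of genes described in the table as type IV alpha 4 and alpha 5 carry no symbol, so they lie outside the 42. Neither passed for loading in Nb3 alloy, at log2 differences of 0.62 and -0.03 (adjusted p = 0.221 and 0.919, limma).

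Col15a1 and Col18a1 code the chains that bind basement membranes to the matrix beneath, and endostatin is cut from the end of type XVIII. Col15a1 had 53.4, 175 and 36.4 FPKM in loaded Nb3 alloy, against 7.49, 3.45 and 4.21 FPKM in non-loaded Nb3 alloy. Col18a1 had 62.7, 145 and 50.9 FPKM in loaded Nb3 alloy, against 6.51, 5.99 and 4.33 FPKM in non-loaded Nb3 alloy. Neither chain overlapped between the groups, and replicate 2 was again the highest. The log2 differences were 3.61 ± 0.50 and 3.58 ± 0.55, and 2.96 and 3.14 without loaded Nb3 alloy replicate 2, all with adjusted p under 0.05 (limma). Col7a1, the anchoring fibril chain below epithelium, was under the filter at 0.539, 1.53 and 0.914 FPKM in loaded Nb3 alloy and 0.141, 0.0889 and 0.0154 FPKM in non-loaded Nb3 alloy. With no filter it also passed, at a log2 difference of 0.85.

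Of the FACIT chains, Col12a1, which lies on type I fibrils of ligament and periosteum, had 78.3, 117 and 98.6 FPKM in loaded Nb3 alloy, against 17.6, 12.2 and 20.5 FPKM in non-loaded Nb3 alloy. Col16a1, a minor chain near cells, had 82.4, 63.3 and 84.9 FPKM in loaded Nb3 alloy, against 9.54, 8.82 and 9.56 FPKM in non-loaded Nb3 alloy. These were the FACIT chains with the narrowest spread relative to their difference, at log2 differences of 2.49 ± 0.37 and 2.91 ± 0.54. Col14a1, found on fibrils of skin and tendon, rose by 1.74 and Col9a3 by 1.30 on the log2 scale, although Col9a3 was at only 1.45, 2.61 and 4.98 FPKM in loaded Nb3 alloy, against 0.351, 0.657 and 0.578 FPKM in non-loaded Nb3 alloy. Col22a1, a FACIT chain of tissue junctions, had 37.1, 6.32 and 45.4 FPKM in loaded Nb3 alloy, against 24.3, 15.5 and 11.4 FPKM in non-loaded Nb3 alloy, with replicate 2 below every non-loaded library, and did not pass.

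The type VI chains, which surround cells in most connective tissues, rose with little spread for Col6a1 and Col6a2. Col6a1 had 184, 231 and 234 FPKM in loaded Nb3 alloy, against 50.8, 46.5 and 38.3 FPKM in non-loaded Nb3 alloy. Col6a2 had 151, 201 and 180 FPKM in loaded Nb3 alloy, against 35.6, 31.7 and 32.1 FPKM in non-loaded Nb3 alloy. Their log2 differences were 2.24 ± 0.36 and 2.38 ± 0.34. Col6a3, the largest of the classical type VI chains, overlapped between the groups, at 44.0, 55.0 and 83.8 FPKM loaded and 46.8, 15.3 and 13.4 FPKM non-loaded, with a log2 difference of 1.42. Its call was lost in the fit of the compared groups alone and when replicate 3 of loaded Nb3 alloy, or either of replicates 2 and 3 of non-loaded Nb3 alloy, was left out. Col6a5 rose by 2.30 and Col28a1 by 1.75. The short-chain formers Col8a1 and Col8a2, known from vessel wall and cornea, rose by 2.46 and 1.33. Among transmembrane chains, Col13a1, a chain of cell adhesion sites including the neuromuscular junction, had 90.5, 19.4 and 88.3 FPKM in loaded Nb3 alloy, against 36.6, 47.0 and 27.6 FPKM in non-loaded Nb3 alloy. Its replicate 2 lay below all 3 non-loaded libraries, and the log2 difference of 0.56 (95% interval -0.67 to 1.795) did not pass.

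**Figure D2:**
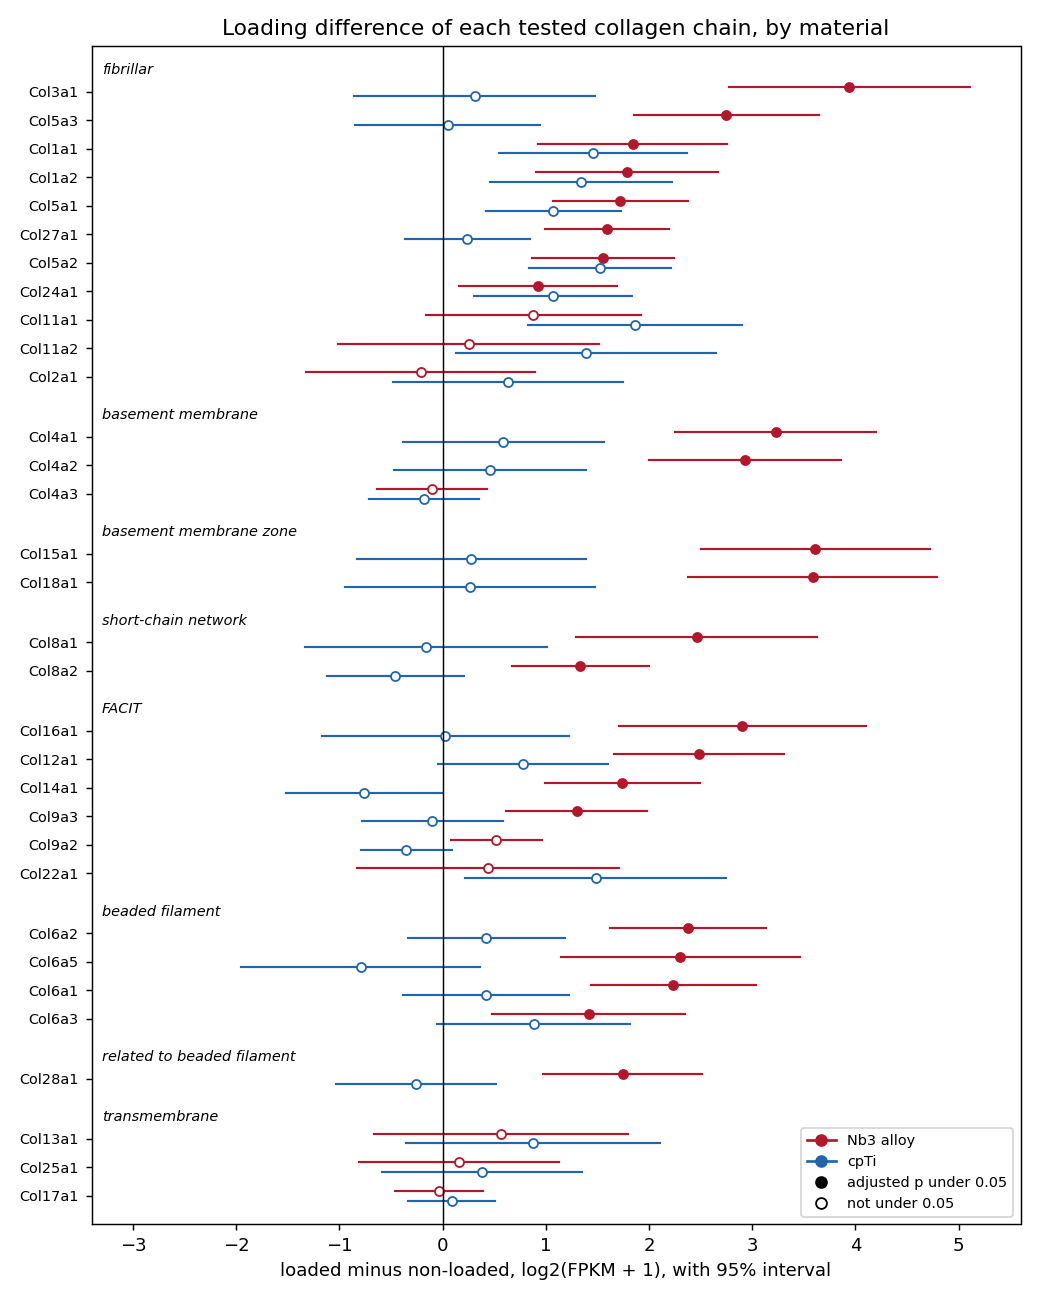
Loaded minus non-loaded difference of each of the 32 tested chains, on the log2(FPKM + 1) scale, with its 95% interval, in Nb3 alloy (upper of each pair) and in cpTi (lower). Filled points have an adjusted p under 0.05. 23 chains are filled in Nb3 alloy and none in cpTi. The intervals of Col1a1, Col1a2, Col5a1, Col5a2 and Col24a1 overlap between the materials, while those of Col3a1, Col15a1, Col18a1 and Col5a3 do not.

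In cpTi, no chain passed the test for loading. Over all tested genes 0% rose and 0.00655% fell (1 gene), by limma, and limma-voom on the recovered reads also called 0 chains. At an unadjusted p under 0.05 there were 9 of the 32 tested chains, beside 1062 of all 15268 tested genes. The adjusted p of the 32 chains ran from 0.529 to 0.993. All 3 loaded libraries lay above all 3 non-loaded ones for 9 tested chains, Col1a1, Col1a2, Col5a1, Col5a2, Col11a1, Col11a2, Col22a1, Col24a1 and Col6a3, where 7.0% of all tested genes did so. They lay below for Col14a1 and Col9a2, where 9.4% of all tested genes did so. All 11 fibrillar chains had a log2 difference above 0, with a median of 1.07, while the median of the 32 chains was 0.40 and that of all tested genes -0.03.

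Col1a1 had 5816, 5284 and 5304 FPKM in loaded cpTi, against 1570, 2520 and 1983 FPKM in non-loaded cpTi, a log2 difference of 1.46 (95% interval 0.54 to 2.37). Col5a2 had 183, 304 and 209 FPKM in loaded cpTi, against 70.1, 75.8 and 89.3 FPKM in non-loaded cpTi, a log2 difference of 1.53 (0.84 to 2.21). Col11a1 had 104, 175 and 97.8 FPKM in loaded cpTi, against 43.2, 19.4 and 40.7 FPKM in non-loaded cpTi, a log2 difference of 1.87 (0.83 to 2.91). In each of these the groups were separate, with unadjusted intervals above 0, yet the differences did not pass after adjustment over all genes. Col3a1 had 91.0, 385 and 262 FPKM in loaded cpTi, against 104, 250 and 185 FPKM in non-loaded cpTi, a log2 difference of 0.31 (-0.85 to 1.48). Its groups overlapped, and the interval includes both a fall and a rise. Col4a1 had 27.6, 33.0 and 38.6 FPKM in loaded cpTi, against 21.0, 28.2 and 16.7 FPKM in non-loaded cpTi, a log2 difference of 0.59 (-0.38 to 1.56). Its groups overlapped as well. Col18a1 had 5.79, 17.6 and 19.7 FPKM in loaded cpTi, against 10.01, 21.8 and 4.95 FPKM in non-loaded cpTi. Col6a1 had 51.4, 114 and 93.7 FPKM in loaded cpTi, against 42.3, 113 and 47.2 FPKM in non-loaded cpTi. Replicate 2 of non-loaded cpTi was the highest of its group in both, and the groups overlapped. Osteoblast and osteocyte markers summed to 3929 to 6676 FPKM in loaded cpTi, against 2025 to 2957 FPKM in non-loaded cpTi, and their part in these differences was not tested.

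The interaction is the loading difference in Nb3 alloy minus that in cpTi, each taken between bulk samples. The part of the mitochondrial share and marrow markers of loaded Nb3 alloy, given above, in the interaction was not tested. The interaction was positive and passed for 17 of the 32 chains, and was negative and passed for none. Over all tested genes, 8.42% passed in the positive direction and 11.8% in the negative one. The number of chains was 11 without non-loaded Nb3 alloy replicate 3 and 13 without loaded Nb3 alloy replicate 2. Col3a1 had an interaction of 3.63 ± 0.75, Col15a1 of 3.33 ± 0.71, Col18a1 of 3.32 ± 0.78, Col6a5 of 3.10 ± 0.74 and Col4a1 of 2.64 ± 0.62 (SE, log2; adjusted p 0.00744, 0.00887, 0.0137, 0.0152 and 0.0142, limma). Without loaded Nb3 alloy replicate 2 that of Col15a1 was 2.68, without loaded cpTi replicate 1 that of Col3a1 was 3.03, and without non-loaded cpTi replicate 2 that of Col6a5 was 2.37, all with adjusted p under 0.05 (limma). Of the 17 calls, those of Col6a1, Col8a1, Col9a3, Col12a1, Col16a1 and Col27a1 were lost under some alternatives. The chains that rose in Nb3 alloy without passing the interaction were Col1a1, Col1a2, Col5a1, Col5a2, Col24a1 and Col6a3. Their interactions with intervals were 0.38 (-0.91 to 1.68) for Col1a1, 0.45 (-0.80 to 1.70) for Col1a2, 0.65 (-0.27 to 1.57) for Col5a1, 0.03 (-0.94 to 1.004) for Col5a2, -0.15 (-1.22 to 0.93) for Col24a1 and 0.53 (-0.79 to 1.85) for Col6a3. The direction of Col1a1 and Col1a2 flipped under quantile normalization, and that of Col5a2 under quantile normalization, scaling by total reads and limma-voom. The intervals of all but Col24a1 reach above 1 on the log2 scale, a 2-fold larger loading difference in Nb3 alloy. That of Col24a1 reaches below -1, so none of the 6 shows that the loading difference was alike in the materials. Col3a1 and Col5a2 are neighbours on chromosome 9, 38.2 kb apart on the deposited coordinates, and their interactions were 3.63 and 0.03.

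Under loading, 15 chains were higher in Nb3 alloy than in cpTi and none was lower, beside 14.7% and 18.9% of all tested genes, and 12 chains were called without loaded Nb3 alloy replicate 2. Loaded Nb3 alloy lay above loaded cpTi in all libraries for 18 tested chains (21.0% of all tested genes) and below for none (25.5%). All 15 called chains were among the 17 with a passing interaction, and these comparisons share the loaded Nb3 alloy libraries. The others of the 17 were Col8a1 and Col9a3. Col15a1 had 53.4, 175 and 36.4 FPKM in loaded Nb3 alloy, against 6.12, 12.4 and 8.61 FPKM in loaded cpTi, a log2 difference of 2.87, and of 2.22 without loaded Nb3 alloy replicate 2. Col3a1 differed by 2.49 (1.89 without loaded cpTi replicate 1), Col18a1 by 2.51, Col4a1 by 2.26 and Col5a3 by 2.21 (log2, adjusted p under 0.05, limma). The calls of Col6a1, Col6a5, Col16a1, Col27a1 and Col28a1 were lost under some alternatives. Of the type I chains, Col1a1 differed by 0.37 (95% interval -0.55 to 1.28) and Col1a2 by 0.46 (-0.43 to 1.34), and both turned negative under quantile normalization. Without loading no chain was called between the materials, where 0% of all tested genes were called in either direction, and limma-voom also called 0 chains. At an unadjusted p under 0.05 there were 4 of the 32 tested chains, beside 470 of all 15268 tested genes. Non-loaded Nb3 alloy lay below non-loaded cpTi in all libraries for 6 tested chains (4.41% of all tested genes) and above for none (2.88%). These were Col14a1, Col16a1, Col28a1, Col6a5, Col8a1 and Col8a2. Col14a1 had 0.862, 0.746 and 0.383 FPKM in non-loaded Nb3 alloy, against 1.91, 3.23 and 2.24 FPKM in non-loaded cpTi, a log2 difference of -1.05 that did not pass. The interaction of these chains holds both their static and their loaded difference between the materials.

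Ratios between chains within a library do not depend on how libraries are scaled. Col1a1 over Col1a2, whose products join in a fixed proportion in the type I helix, stayed between 1.42 and 1.85 in all 12 libraries. Col4a1 over Col4a2 was 1.69, 1.65 and 1.65 in loaded Nb3 alloy, against 1.48, 1.33 and 1.34 in non-loaded Nb3 alloy, with no overlap, and 1.31 to 1.69 over all 12. Col6a1 over Col6a2 ran from 1.15 to 1.47 over all 12. The ratios of these pairs stayed within narrow ranges while the level of each chain varied several-fold. Col4a1 over Col4a2 and Col6a1 over Col6a2 were also separate between loaded Nb3 alloy and loaded cpTi. Col3a1 over Col1a1 was 0.111, 0.377 and 0.112 in loaded Nb3 alloy, against 0.0313, 0.0400 and 0.0462 in non-loaded Nb3 alloy. It was 0.0157, 0.0730 and 0.0495 in loaded cpTi, against 0.0661, 0.0990 and 0.0934 in non-loaded cpTi. In Col3a1 relative to Col1a1, loaded Nb3 alloy thus lay above every other library, with replicate 2 highest. Col12a1 over Col14a1 was 24.1, 29.7 and 45.1 in loaded cpTi, against 6.74, 8.25 and 7.25 in non-loaded cpTi, and 20.1, 13.2 and 39.9 in loaded Nb3 alloy, against 20.5, 16.4 and 53.5 in non-loaded Nb3 alloy. The groups were separate in cpTi and overlapped in Nb3 alloy. With 3 libraries against 3 the exact two-sided permutation test cannot go below 0.1, and over the 27 tests of 9 pairs in 3 comparisons the smallest adjusted p was 0.415.

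**Figure D3:**
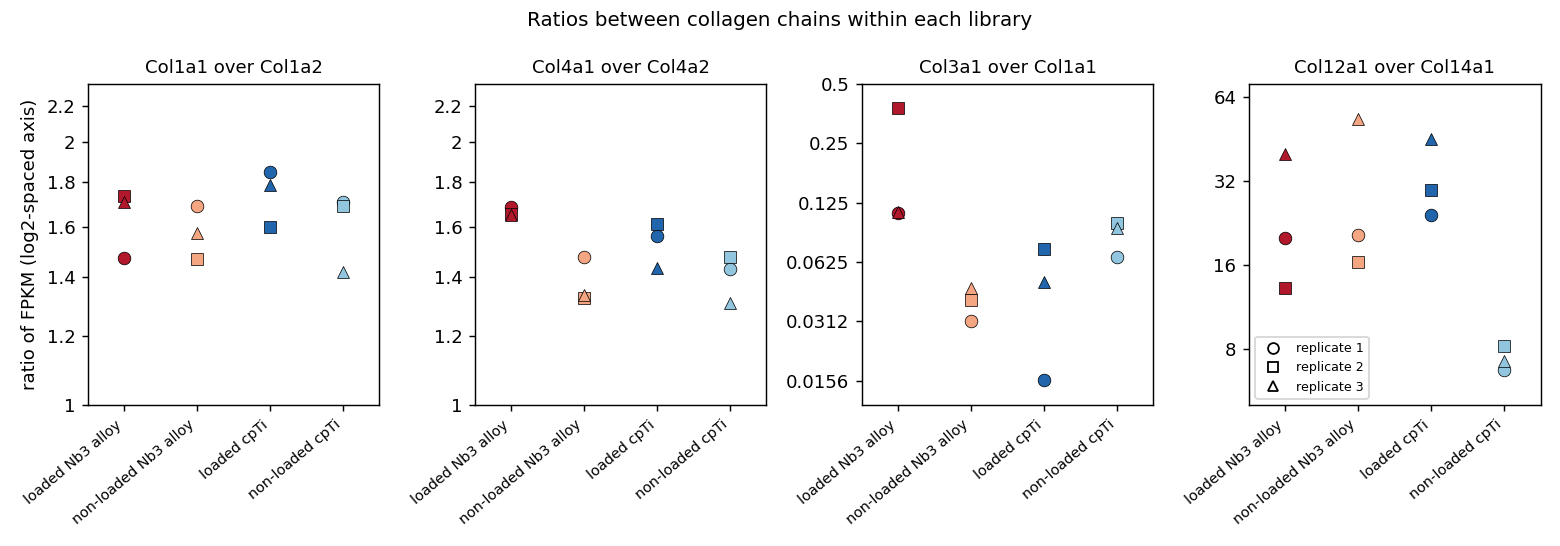
Ratios of FPKM between chains within each library, for 4 pairs, on log2-spaced axes. Each point is a library, and symbols give the replicate. Col1a1 over Col1a2 and Col4a1 over Col4a2 stay within 1.31 to 1.85, Col3a1 over Col1a1 is 0.111 or higher only in the 3 loaded Nb3 alloy libraries, and Col12a1 over Col14a1 is 8.25 or lower only in non-loaded cpTi.

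Shares of the summed collagen FPKM give the make-up of the collagen RNA. Type III held 5.52%, 15.7% and 5.86% in loaded Nb3 alloy, against 1.74%, 1.92% and 2.36% in non-loaded Nb3 alloy. Type IV chains held 1.13%, 4.81% and 0.992%, against 0.722%, 0.801% and 0.754%. Both shares were higher in each loaded library, by the widest margin in replicate 2. In cpTi type III held 0.926%, 3.72% and 2.75% when loaded, against 3.42%, 5.02% and 4.58% when not loaded, and type IV chains held 0.469%, 0.529% and 0.694%, against 1.21%, 0.987% and 0.751%.

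The 3 loaded Nb3 alloy libraries did not vary alike across chains. Replicate 2 was the lowest of the 3 for 14 of the 32 tested chains, the highest for 13 and in between for 5. It stood at 0.153 of the mean of replicates 1 and 3 for Col22a1, 0.167 for Col11a2, 0.1775 for Col25a1 and 0.217 for Col13a1. For Col11a1 it stood at 0.312, for the type IV chain Col4a3 at 0.342 and for Col1a1 at 0.546. Replicate 2 stood at 3.90 times that mean for Col15a1, 3.08 for Col4a2, 3.05 for Col4a1 and 2.88 for Col5a3. For Col14a1 it stood at 2.78, for Col18a1 at 2.56 and for Col3a1 at 1.85. The type VI chains Col6a1 and Col6a2 were close to the other replicates. Osteoblast and osteocyte markers summed to 8967, 1832 and 9323 FPKM in replicates 1, 2 and 3, skeletal muscle markers to 122, 613 and 2.87 FPKM, and endothelial markers to 179, 340 and 260 FPKM. The muscle markers Acta1, Myh2 and Myh4 were listed at 0 in replicate 3, and the epithelial keratin Krt5 reached 51.1 FPKM in replicate 2. Their part in the spread among these libraries was not tested.

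**Figure D4:**
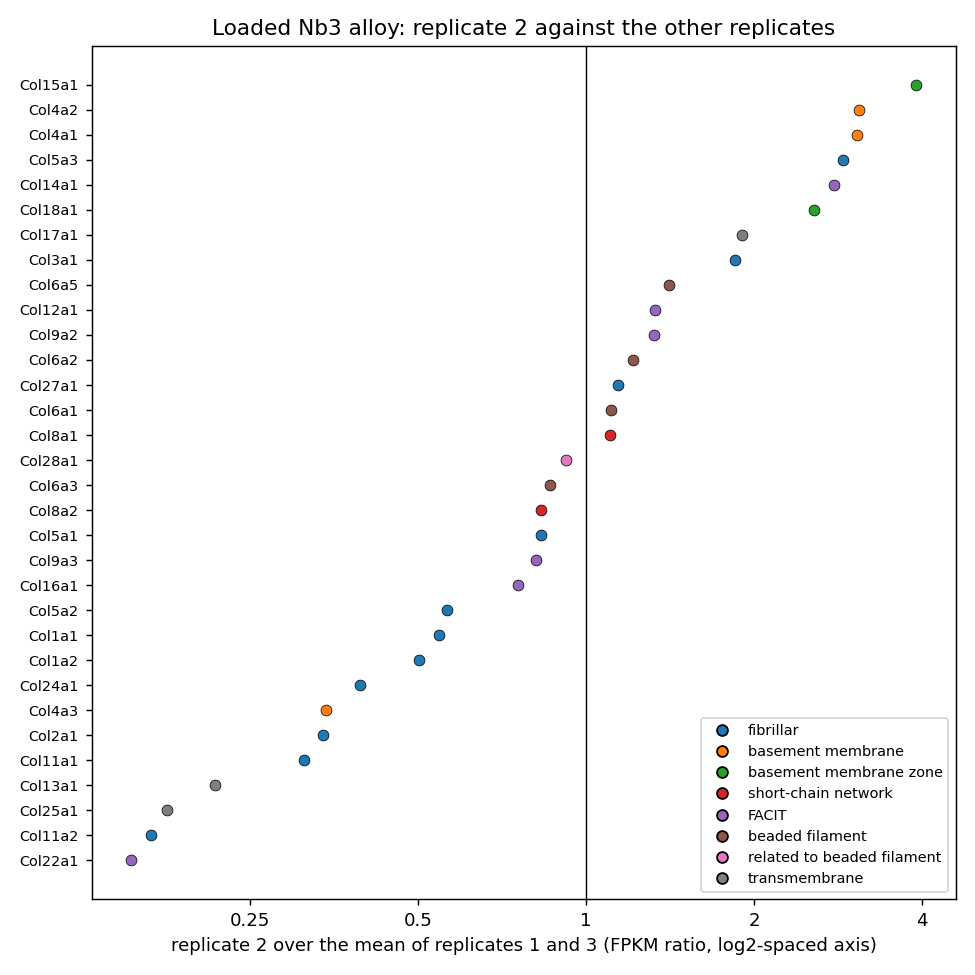
FPKM of loaded Nb3 alloy replicate 2 over the mean of replicates 1 and 3, for each of the 32 tested chains, on a log2-spaced axis and coloured by class. Col4a1, Col4a2, Col15a1, Col18a1, Col5a3 and Col14a1 lie at 2.56 to 3.90. Col11a1, Col11a2, Col13a1, Col22a1 and Col25a1 lie at 0.153 to 0.312, and the type IV chain Col4a3 at 0.342.

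The machinery that folds, trims, cross-links and senses collagen was taken from a list of 52 genes, of which 48 were tested. In Nb3 alloy 35 rose with loading and 3 fell, beside 20.7% and 25.2% of all tested genes, and in cpTi none was called, beside 0% and 0.00655% (limma, adjusted p under 0.05). The median log2 difference of the 48 was 1.10 in Nb3 alloy and 0.44 in cpTi, where those of all tested genes were -0.02 and -0.03. Among 34 assembly genes 29 rose and 2 fell in Nb3 alloy, to be read beside the same 20.7% and 25.2%. Serpinh1, the collagen chaperone, had 540, 387 and 559 FPKM in loaded Nb3 alloy, against 150, 119 and 94.6 FPKM in non-loaded Nb3 alloy, a log2 difference of 2.03. Pcolce, the enhancer of C-propeptide removal, rose by 2.50, Lox, which starts cross-linking, by 2.52, and Adamts2, the N-propeptidase, by 2.11. Tmem38b and Mia2, which serve the endoplasmic reticulum and export from it, fell by 0.50 and 0.65. Of 8 receptors, Itga11, Itgb1 and Ddr1 rose by 1.32, 0.92 and 1.10, while Ddr2, Itga1, Itga2, Itga10 and Mrc2 did not pass. Of 6 enzymes of breakdown, Mmp2 rose by 3.44, Mmp14 by 2.05 and Ctsk, the osteoclast protease, by 1.81, while Mmp9 and Mmp13 did not pass. Mmp8, the neutrophil collagenase, had 17.2, 10.9 and 0.877 FPKM in loaded Nb3 alloy, against 316, 189 and 642 FPKM in non-loaded Nb3 alloy, and fell by 5.51 on the log2 scale. For 13 of the 48 the interaction passed in the positive direction, including Mmp2 (3.17) and Pcolce (2.02), and for 2, Mmp8 and Mia2, in the negative one, beside 8.42% and 11.8% of all tested genes.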

How the data were processed

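Per the labels' protocols, TRIzol RNA went into polyadenylated NEBNext Ultra libraries. The authors deposited 1 table of FPKM that also lists the length and position of its 33801 genes. The unit is read from the values, since FPKM times gene length came in whole reads for 100% of values within 0.01 read. Per the submitters' processing notes, the tools included featureCounts 1.5.0-p3 and HISAT2 2.0.5, and also DESeq2 1.20.0, CASAVA 1.8 and fastp, with no roles stated. The build, the annotation and any use of strand are not given in the sources used. The depth behind the deposited FPKM followed a median-of-ratios size factor rather than the library total (ratio 0.992 to 1.02).

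In R 4.3.3, limma 3.58.1 fitted the log2 of the deposited FPKM plus 1 over all 12 libraries. It used group means, trended and robust moderation, and Benjamini-Hochberg adjustment over 15268 genes reaching 1 FPKM in at least 3 libraries. Calls are at an adjusted p under 0.05, and log2 differences understate changes of low genes. The 5 comparisons were loading in each material, material at each loading state, and their interaction. Chain ratios were tested by exact permutation. The fit was tested on simulated data. Of the 2-fold differences put into these data, it recovered 0% for the interaction and 9% to 17% for the other comparisons. Of the 4-fold ones, it recovered 36% for the interaction and 80% to 91% for the others. False calls made up 16.3% of the interaction calls and 3.70% to 8.33% of the calls in the others. Named chains were a panel of main chains of each class, plus up to 3 further called chains per class and comparison by smallest p. The members, gene lists and tests were chosen with earlier results of these data known. Alternatives were a pseudocount of 0.1, no filter, scaling by total reads, quantile normalization, limma-voom on recovered reads, a replicate block, a fit of the compared groups alone, leaving out each library, and scaling by nuclear reads, which was added after the data were seen.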

Additional observations from a re-analysis of the deposited data

Results flagged for a closer look

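Of the 32 tested chains, 17 had a loading difference in Nb3 alloy unlike that in cpTi (interaction test of limma, adjusted p under 0.05). Over all tested genes, 8.42% passed in the positive direction and 11.8% in the negative one. All 17 interactions were positive on the log2(FPKM + 1) scale. Among fibrillar chains they were 3.63 for Col3a1, 2.70 for Col5a3 and 1.35 for Col27a1. Among type IV and basement membrane zone chains they were 2.64 for Col4a1, 2.47 for Col4a2, 3.33 for Col15a1 and 3.32 for Col18a1. The short-chain formers Col8a1 and Col8a2 had 2.62 and 1.79. The FACIT chains Col16a1, Col14a1, Col12a1 and Col9a3 had 2.88, 2.50, 1.71 and 1.40. The type VI chains Col6a5, Col6a2 and Col6a1 had 3.10, 1.95 and 1.82, and Col28a1 had 2.00. With no filter the calls of Col6a1, Col8a1, Col9a3, Col12a1 and Col27a1 were lost, and under limma-voom those of Col6a1, Col8a1, Col9a3 and Col12a1. Scaling by total reads lost Col6a1, Col9a3, Col12a1 and Col27a1, quantile normalization lost Col6a1, Col9a3 and Col12a1, and the replicate block lost Col9a3. These 5 were also lost without 1 or another library, and Col16a1 was lost without non-loaded Nb3 alloy replicate 3 and its interaction was 2.19 without non-loaded cpTi replicate 2. All rest on the loaded Nb3 alloy libraries, whose mitochondrial read share and marrow markers stand apart from the other 9, and the part of these in the interactions was not tested. Groups of 3 are too small for the rule on outlying samples.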

How the results depend on the processing

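The number of chains called higher stayed at 21 to 27 for loading in Nb3 alloy and at 10 to 17 for material under loading over 20 alternatives each, and at 11 to 18 for the interaction over 19. Leaving out 1 library gave 11 to 17 chains in the interaction. Chains called under every alternative run numbered 19, 10 and 11 in these comparisons. Over all genes the interaction called 735 higher under limma-voom and 843 under scaling by total reads, against 1285, and material under loading 1352 and 1357, against 2239. These settings moved the median log2 difference of all genes in Nb3 alloy to -0.23 (limma-voom) and -0.17 (total reads). Scaling by nuclear reads left it at -0.02, the value of the deposited scaling. With nuclear reads 1201 genes were called higher in the interaction and 2156 for material under loading. Under quantile normalization Col1a1 and Col1a2 turned to -0.52 and -0.37 for material under loading, and Col1a1, Col1a2 and Col5a2 to -0.79, -0.40 and -0.085 for the interaction. The Col5a2 interaction was -0.16 under total reads and -0.14 under limma-voom. The cause was not tested.

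Leaving out 1 library gave ranges across 0 for Col11a2 (-0.19 to 1.10) and Col22a1 (-0.053 to 1.28) in Nb3 alloy, Col3a1 in cpTi (-0.13 to 0.91), and Col5a2 for material under loading (-0.021 to 0.47) and the interaction (-0.24 to 0.30), and for the Col24a1 interaction (-0.49 to 0.22). The same held for the log2 ratios Col5a1 over Col1a1 (-0.30 to 0.047) and Col12a1 over Col14a1 (-0.68 to 0.26) with loading in Nb3 alloy, and Col6a1 over Col6a2 (-0.035 to 0.014) and Col15a1 over Col4a1 (-0.57 to 0.13) in cpTi. A pseudocount of 1 turned Col12a1 over Col14a1 to 0.75 with loading in Nb3 alloy and 0.15 for material under loading, since Col14a1 is low.

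Same-numbered replicates did not deviate together (correlations -0.252 to 0.115), and the labels name no pairing. Deviations from means of 3 libraries cannot show whether same-numbered samples shared a rat. With the replicate number as a block, 22 chains were called higher with loading in Nb3 alloy, 15 for material under loading and 16 in the interaction. Over all 15268 tested genes, the block called 2941, 1953 and 1055 higher in these comparisons.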
